A study of Homo sapiens with 8 samples.

Results

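GJC1, CPPED1, CHML, RAB20, CCDC181 and ATRN are 6 protein-coding genes whose RNA was close to absent in wild-type Raji cells and present in RGS-SE knockout Raji cells. They are 6 of the 25377 genes in the RNA table, and 13 of the 70312 peaks in the ATAC table carry the name of one of them. The genes were chosen by their RNA levels and RNA fold change between the genotypes, so these are given below as a description, without a test. The accessibility of their chromatin was measured in separate libraries. Earlier results of these data were known when the genes were chosen, and whether accessibility had a part in the choice is not known.

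Raji is a human Burkitt lymphoma B cell line. RGS-SE knockout cells are labelled as lacking a super-enhancer between RGS1 and RGS13 on chromosome 1, cut out with Cas9 and a pair of guide RNA plasmids delivered by electroporation, followed by puromycin and the picking of single clones. Wild-type Raji cells carry no engineered allele, and the labels do not say that they went through the same electroporation and selection. RNA-seq and ATAC-seq, which counts insertions of a transposase into open chromatin, were each run on 2 RGS-SE knockout and 2 wild-type samples, labelled as biological replicates, 8 libraries in all. How many clones the knockout samples represent is not given, so the deletion and the clone cannot be told apart. In bulk libraries, more RNA per cell and more cells with the RNA cannot be told apart either.

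The genes act in separate parts of the cell. GJC1 encodes connexin 45, a subunit of the gap junction channels that join neighbouring cells, and is best known from heart and smooth muscle. ATRN encodes attractin, a large glycoprotein made in a membrane-bound and a secreted form, known in mice for its role in pigment switching and in the upkeep of myelin. RAB20 is a small GTPase of the Rab family, which directs vesicle traffic, and it acts on endosomes and phagosomes. CHML encodes a Rab escort protein, a relative of CHM, which presents new Rab proteins to the enzyme that attaches their lipid anchor. CPPED1 encodes a calcineurin-like phosphatase that acts on AKT1. CCDC181 encodes a coiled-coil protein of the microtubules, known in mice from the sperm tail. Chromatin around the start site of an expressed gene is usually open to transposase, and that of a silent gene is often closed, with or without methylation of its CpG dinucleotides.

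The sequence around the starts is shown because the results turn on which start was open. RefSeq (GRCh38.p14) promoter windows, 250 bases before a start to 50 after it, were at hand for 4 of the 6 genes, CPPED1, CHML, CCDC181 and ATRN, but not for GJC1 and RAB20. They are written 5′ to 3′ on the gene's strand, with CpG dinucleotides in capitals. The first 4 lie in or across a peak that was higher in the knockout, and the last, an upstream start of CCDC181, has no peak.

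CPPED1, chr16:12803838-12804137, minus strand: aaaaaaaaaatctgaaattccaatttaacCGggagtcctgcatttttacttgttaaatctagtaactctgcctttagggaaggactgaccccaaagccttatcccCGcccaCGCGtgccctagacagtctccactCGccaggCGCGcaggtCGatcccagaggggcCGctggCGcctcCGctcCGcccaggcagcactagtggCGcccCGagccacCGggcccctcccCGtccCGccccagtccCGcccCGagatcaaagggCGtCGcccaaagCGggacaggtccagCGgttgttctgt
CHML, chr1:241640320-241640619, minus strand: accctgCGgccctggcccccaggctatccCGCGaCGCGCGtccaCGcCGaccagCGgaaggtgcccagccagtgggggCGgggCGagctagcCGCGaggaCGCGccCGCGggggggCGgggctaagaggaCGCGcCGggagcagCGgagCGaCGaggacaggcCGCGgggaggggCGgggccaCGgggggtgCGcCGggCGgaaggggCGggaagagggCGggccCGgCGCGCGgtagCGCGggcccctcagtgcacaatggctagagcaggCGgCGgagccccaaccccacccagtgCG
CCDC181, chr1:169427425-169427724, minus strand: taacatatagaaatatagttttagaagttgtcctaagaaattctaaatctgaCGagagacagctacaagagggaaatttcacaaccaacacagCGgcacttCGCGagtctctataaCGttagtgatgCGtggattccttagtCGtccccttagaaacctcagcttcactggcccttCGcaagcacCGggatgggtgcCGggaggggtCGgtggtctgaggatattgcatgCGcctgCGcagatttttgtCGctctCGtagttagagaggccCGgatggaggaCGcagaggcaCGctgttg
ATRN, chr20:3470768-3471067, plus strand: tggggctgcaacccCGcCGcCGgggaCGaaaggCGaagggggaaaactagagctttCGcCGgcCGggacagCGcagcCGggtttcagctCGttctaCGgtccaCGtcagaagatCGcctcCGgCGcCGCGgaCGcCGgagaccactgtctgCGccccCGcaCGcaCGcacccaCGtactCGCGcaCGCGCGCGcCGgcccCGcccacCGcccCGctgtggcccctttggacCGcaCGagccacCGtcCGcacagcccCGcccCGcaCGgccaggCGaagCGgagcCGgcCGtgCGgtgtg
CCDC181 upstream start, chr1:169460620-169460919, minus strand: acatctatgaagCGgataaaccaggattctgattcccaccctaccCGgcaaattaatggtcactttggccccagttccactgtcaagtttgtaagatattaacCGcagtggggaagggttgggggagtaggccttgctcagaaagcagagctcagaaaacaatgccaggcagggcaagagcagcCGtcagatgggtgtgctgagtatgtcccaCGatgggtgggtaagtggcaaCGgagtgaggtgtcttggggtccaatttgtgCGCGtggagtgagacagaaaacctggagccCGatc

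The windows of ATRN and CHML were dense in CpG, with 47 and 42 CpG dinucleotides. These counts were above those of 97.6% and 94.2% of the 35116 promoter windows of the genome, whose median was 14. CPPED1 had 23 and the accessible start of CCDC181 had 18, nearer the middle of all windows, while the upstream start of CCDC181 had 9. A second RefSeq start of CHML, at 241636194 inside the transcript, had 1 CpG and no peak. The GC box GGGCGG, counted on both strands, occurred 6 times at CHML, 4 times at CPPED1 and 3 times at ATRN. It did not occur in either window of CCDC181, and 45.0% of all windows held it. CCAAT was present once at CPPED1 and once at the upstream start of CCDC181, and 34.6% of all windows held it on either strand. None of these windows held the E-box CACGTG, which 7.26% of all windows hold on either strand. The ETS core CCGGAA, in 17.2% of all windows, was likewise missing from these letters. The cyclic AMP element TGACGTCA, in 1.85% of all windows, did not occur either. Apart from CpG, no searched motif was thus common to the 4 accessible windows.

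The deposited tables give the mean of the 4 libraries of an assay and not the libraries themselves. Because each library adds its whole reads divided by its own size factor to that mean, the reads of each library could be recovered for genes and peaks with a mean of at most 600. The solution was unique for 200 of 200 genes and 200 of 200 peaks checked, with a median difference from the deposited log2 fold change of 0.0058 for genes and 0.0048 for peaks. The libraries of a genotype are given with the smaller size factor first, in each assay separately, since their replicate numbers are not known. Among RNA libraries, size factors reached 1.03 and 1.07 in the knockout and 0.717 and 1.30 in wild type. Those of ATAC were 0.911 and 1.08 in the knockout and 0.944 and 1.10 in wild type.

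The header of the tables does not say which genotype is on top of the ratio. Positive values are read here as more signal in knockout cells. This rests on the lowest peak in the labelled interval of the deletion, chr1:192609102-192609836 on hg38. It held 0 and 0 reads in the libraries taken as knockout, against 592 and 679 in those taken as wild type. Libraries were assigned to a genotype by the deposited fold changes, so which group holds the 0 reads at this peak follows from that sign. The other peaks of the 18 in that interval summed in the knockout to 97.2% of their wild-type level. As a sum this is little loss, but gains and losses of single peaks can cancel in it. How much of the labelled interval was lost was not tested. If the sign were coded otherwise, all directions given here would turn. Of the B cell markers, 8 of 8 were in the RNA table, and their summed level was 3709 CPM in the knockout and 2656 CPM in wild type, where CPM is the share of the table's summed mean. T and NK cell markers summed to 0.373 and 0.125 CPM and myeloid markers to 1.52 and 1.67 CPM in knockout and wild type, and 4 of 6 and 2 of 6 of these markers had no row in the table. Epithelial and fibroblast markers summed to 8.54 CPM in the knockout and 3.97 CPM in wild type, with EPCAM, KRT8, KRT18, COL1A1, COL1A2 and DCN listed and 4 of the 6 without a row. The part of other cells in the results was not tested.

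GJC1 on chromosome 17 (44798448 to 44830816, minus strand, hg38) had 983 and 1083 RNA reads in the knockout libraries, against 0 and 0 in the wild-type libraries. Normalised by the size factors, that was 986 ± 43.7 in the knockout (SD, n = 2), at least 664-fold above the level that 3 reads over both wild-type libraries would give. Its log2 fold change of 12.34 (SE 1.47) was the highest of all genes in the authors' deposited table. A fitted fold change against a group at 0 depends on the fit and is not itself a bound.

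ATRN on chromosome 20 (3471018 to 3651118, plus strand) had 296 and 315 RNA reads in the knockout and 0 and 7 in wild type. All 7 wild-type reads fell in 1 library, the genotypes did not overlap, and ATRN had the most wild-type RNA reads of the 6 genes. The ratio of pooled reads, each genotype's summed reads over its summed size factors, was 84.1, with a 95% interval from counting error of 40.6 to 210.2. It is not the ratio of the mean normalised reads. With a log2 fold change of 6.46 (SE 0.71) it stood at place 104 of all genes in the authors' deposited table, and at place 30 among called protein-coding genes of at least 1 CPM. Just above it in that order stood CTNNA1 at 6.52 and just below it GABRA5 at 6.32 in the authors' deposited table.

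RAB20 on chromosome 13 (110523066 to 110561722, minus strand) had 159 and 147 RNA reads in the knockout and 0 and 0 in wild type, at least 98.3-fold higher. CHML on chromosome 1 (241628851 to 241640369, minus strand) had 1041 and 1173 reads in the knockout, against 2 and 0 in wild type. For CHML, the ratio of pooled reads was 1067, and its counting interval of 295 to 8818 was wide because it rests on 2 wild-type reads. Such a gap is what RAB20 and CHML were chosen for.

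CPPED1 on chromosome 16 (12659799 to 12803887, minus strand) had 209 and 296 RNA reads in the knockout, against 0 and 0 in wild type, at least 162-fold higher. CCDC181 on chromosome 1 (169394870 to 169460669, minus strand) had 95 and 121 reads in the knockout and 0 and 0 in wild type, at least 69.4-fold higher. These genes, too, were chosen for this gap. In the authors' deposited table the log2 fold changes were 10.30 for CPPED1, 10.04 for CHML, 9.59 for RAB20 and 9.08 for CCDC181. Thus 4 of the 6 genes had no wild-type read at all, and 2 had reads in a single wild-type library each. Intervals and bounds cover counting error only, since PCR copies are not independent molecules.

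**Figure D1:**
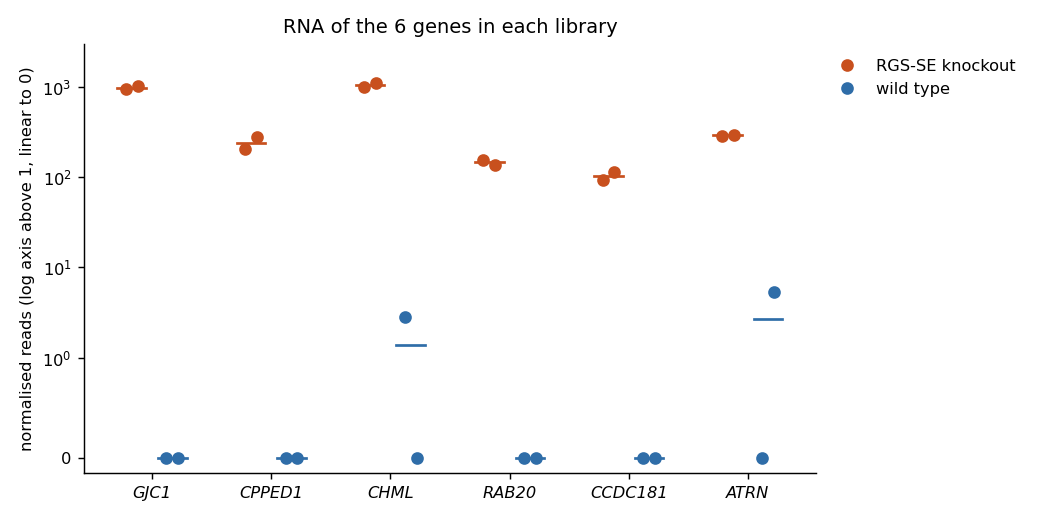
RNA of the 6 genes in each library, as reads divided by the library's size factor on an axis that is logarithmic above 1 and linear to 0. Points are libraries, RGS-SE knockout left of wild type, and bars are the mean of 2 libraries. The knockout points lie between 92.3 and 1101 and the wild-type points between 0 and 5.37.

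The question for ATAC was whether the starts of these genes were more open in the knockout. In the authors' annotation, 1 member, RAB20, had a peak called promoter-TSS. Each of the 6 genes nonetheless had exactly 1 peak within 1000 bp of the start of an annotated protein-coding transcript (GENCODE 44), called here its start-site peak. For GJC1 and CPPED1 the authors' annotation places that peak in the first intron, for ATRN and CHML in the first exon and for CCDC181 in the 5′ UTR. All 6 start-site peaks were higher in the knockout at an adjusted p under 0.05 by the authors' deposited DESeq2 Wald test. Over all 13036 start-site peaks of protein-coding genes, 15.4% were higher by the same test. A log2 fold change at least as high as the lowest of the 6 was found in 0.591% of them.

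The start-site peak of ATRN, chr20:3470891-3471606, had 72 and 87 ATAC reads in the knockout and 0 and 0 in wild type. That was at least 54.5-fold higher in the knockout, with an adjusted p of 4.57e-08 in the authors' deposited DESeq2 table. It was the one start-site peak of the 6 with no wild-type read. The peak covers 177 bases of the CpG-dense window printed above.

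At GJC1, the start-site peak chr17:44829194-44830515 had 253 and 219 reads in the knockout and 11 and 11 in wild type. In the authors' deposited DESeq2 table this was a log2 fold change of 4.48 with an SE of 0.38 and an adjusted p of 3.20e-30. Unlike its RNA, the start of GJC1 was thus read in both wild-type libraries.

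The peak at the single annotated start of RAB20, chr13:110561110-110562289, had 406 and 448 reads in the knockout, against 67 and 53 in wild type. The authors' deposited DESeq2 table gives it 2.87 on the log2 scale (SE 0.20, adjusted p 6.37e-43), the lowest of the 6. It also held the most wild-type ATAC reads of the 6 peaks, although RAB20 had no wild-type RNA read.

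CHML shares its start with OPN3, an opsin gene on the same strand, and the authors' annotation gives the peak to OPN3. That peak, chr1:241639558-241640726, had 431 and 415 reads in the knockout and 20 and 7 in wild type. By the authors' deposited DESeq2 table it rose by 4.98 (SE 0.74, adjusted p 3.31e-10) on the log2 scale. OPN3 RNA had 22 and 14 reads in the knockout and 0 and 0 in wild type, and rose by 6.50 (SE 2.19) with an adjusted p of 0.0199 in the authors' deposited DESeq2 table. That call was lost at an adjusted p under 0.01 and against a 1.5-fold change, and the gene lies under a mean of 100. CHML lies within OPN3, so reads of shared exons could be counted for one, the other or neither.

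The start-site peak of CPPED1, chr16:12803113-12804124, had 386 and 489 reads in the knockout and 0 and 4 in wild type. The ratio of pooled reads was 225, with a counting interval of 87.6 to 828, and the adjusted p was 3.65e-24 in the authors' deposited DESeq2 table. The wild-type reads again came from 1 library.

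CCDC181 has more than one annotated start. The start-site peak, chr1:169427011-169427684, had 147 and 220 reads in the knockout, against 6 and 4 in wild type. The rise was 5.22 (SE 0.52) on the log2 scale, with an adjusted p of 3.98e-22 in the authors' deposited DESeq2 table. At the upstream start the nearest peak was 24634 bp from the window printed above. Over the 6 genes, the lowest normalised start-site value of a knockout library was 79.1 at ATRN. The highest of a wild-type library was 71.0 at RAB20, so the libraries of the genotypes did not overlap at these peaks. How many of all start-site peaks show no overlap was not counted, and 2 libraries per genotype can separate without a difference.

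**Figure D2:**
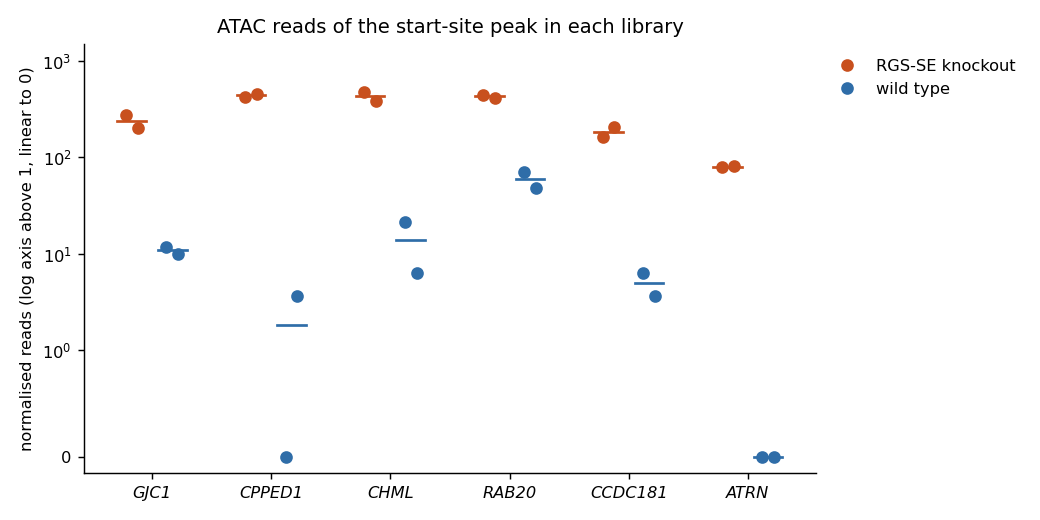
ATAC reads in the start-site peak of each gene, divided by the library's size factor, on an axis that is logarithmic above 1 and linear to 0. Points are libraries, RGS-SE knockout left of wild type, and bars are the mean of 2 libraries. All knockout points lie at 79.1 or above and all wild-type points at 71.0 or below.

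In normalised reads, the mean of the knockout libraries was 439 at CPPED1, 431 at RAB20, 429 at CHML, 241 at GJC1, 183 at CCDC181 and 79.9 at ATRN. The mean of the wild-type libraries was 1.82 at CPPED1, 59.5 at RAB20, 13.8 at CHML, 10.8 at GJC1, 4.99 at CCDC181 and 0 at ATRN.

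To see whether the change was limited to the start, the start-site peak was set against the other peaks of the same gene. The authors' names give 8 such peaks at 4 of the genes, with 3 higher, 0 lower and 5 without a call. Over all 57276 peaks away from start sites, 21.5% were higher and 14.8% lower, and over all 70312 peaks 20.4% and 15.5%. Widened to all other peaks within 100 kb of the gene bodies, 46 peaks gave 10 higher, 3 lower and 33 without a call. In 6 of 6 genes the start-site peak had the highest log2 fold change of all these peaks. How often this holds for other genes was not counted.

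None of the other named peaks of CHML passed the threshold. These 4 peaks, 12.3 to 41.7 kb downstream of the start inside OPN3, had log2 fold changes of -0.49 to -0.05 in the authors' deposited table. The lowest of them had 52 and 63 reads in the knockout and 74 and 93 in wild type. The highest had 114 and 110 in the knockout and 101 and 140 in wild type, with overlapping libraries. The start-site peak exceeded them by 5.03 (95% interval 3.50 to 6.55) to 5.47 (3.90 to 7.04) on the log2 scale, from the difference of the deposited values with their SEs taken as independent. Farther on, 2 peaks in introns of KMO, a kynurenine pathway gene, fell by 2.52 and 1.72 in the authors' deposited table.

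At ATRN, too, the other named peak gave no call. This intron peak, 92.6 kb downstream of the start, had 31 and 34 reads in the knockout and 39 and 38 in wild type, with an adjusted p of 0.748 in the authors' deposited DESeq2 table. The excess of the start-site peak over this peak had a 95% interval of 5.97 to 12.02 on the log2 scale, but its size depends on the fit because the start-site peak had no wild-type reads. A peak upstream of ATRN rose by 1.02 in the authors' deposited table.

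At RAB20, an intron peak 5.68 kb from the start had 309 and 397 reads in the knockout and 210 and 259 in wild type. The rise was 0.63 (SE 0.15) on the log2 scale, with an adjusted p of 0.00022 in the authors' deposited DESeq2 table. The start-site peak exceeded it by 2.24 (95% interval 1.74 to 2.73) on the log2 scale. On the other side, the peak at the start of NAXD, 54.4 kb away, moved the opposite way, with 22 and 36 reads in the knockout and 331 and 348 in wild type.

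Around CPPED1, 4 of 4 other peaks within 100 kb were higher in the knockout. The intron peak 8.39 kb downstream of the start had 139 and 186 reads in the knockout and 7 and 6 in wild type, a log2 fold change of 4.68 in the authors' deposited table. The intergenic peak 16.0 kb upstream had 45 and 70 reads in the knockout and 14 and 12 in wild type, a log2 fold change of 2.17 in the authors' deposited table. The start-site peak exceeded the intron peak by 3.14 (95% interval 1.42 to 4.85) and the intergenic peak by 5.65 (3.93 to 7.37) on the log2 scale. Values on chromosome 16 were raised over a wide stretch here, and within 2 Mb the median log2 fold change was 1.08 over 171 peaks and 1.07 over 32 tested genes. Around the other 5 genes these medians lay between -0.09 and -0.01 for peaks and between -0.16 and 0.16 for genes.

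No other peak carried the name of GJC1 or CCDC181. Within 100 kb, GJC1 had 11 other peaks with 3 higher, by at most 1.13, and CCDC181 had 7 of which none passed the threshold, all by the authors' deposited DESeq2 test.

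**Figure D3:**
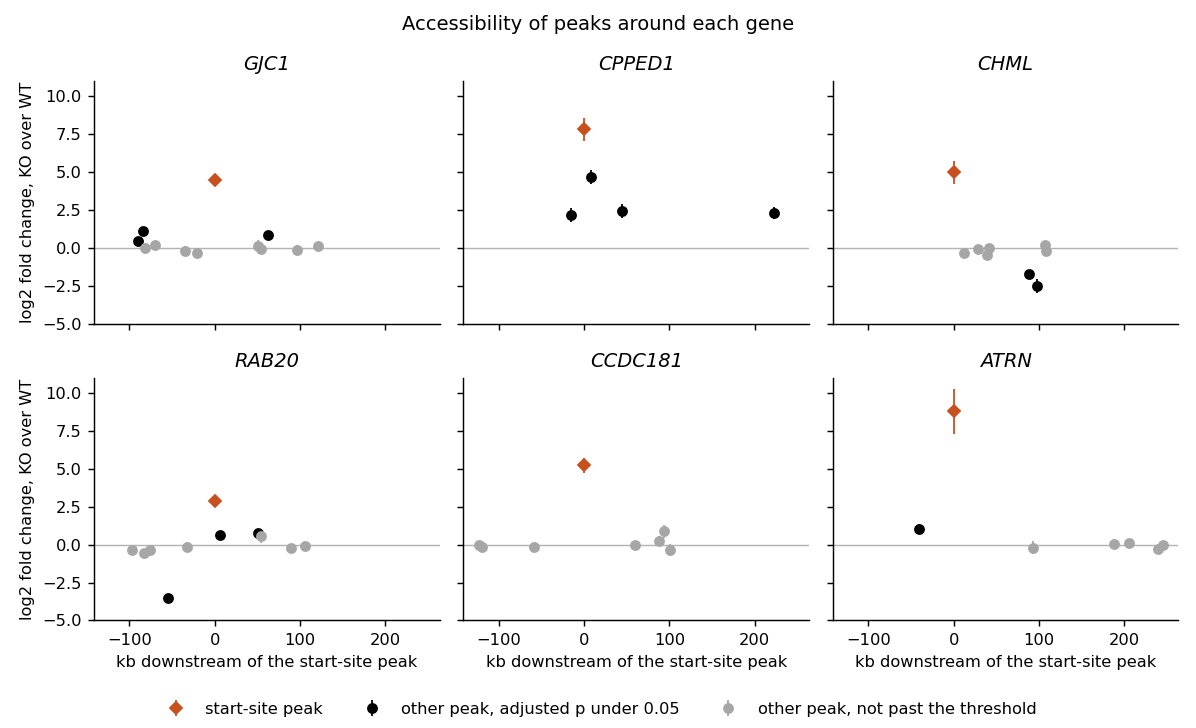
Log2 fold change (RGS-SE knockout over wild type) of every peak within 100 kb of each gene body against the distance in kb downstream of the start-site peak. Diamonds are start-site peaks, black points other peaks with an adjusted p under 0.05, grey points those not past the threshold, and bars the SE. The diamond is the highest point in each of the 6 panels, and at CPPED1 all points lie above 0.

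The neighbouring genes show whether the RNA rose over a wider domain. Within 500 kb of the 6 genes, 73 other genes were tested, and 7 of these rose while 4 fell and 62 gave no call. That is 15.1%, against 19.2% of all 17013 tested genes, of which 9.89% rose and 9.28% fell. The median log2 fold change of the neighbours was -0.12, and that of all tested genes was 0.02. Of the neighbours' 34 promoter-TSS peaks, 6 were higher and 1 lower (20.6%), against 34.2% of all such peaks, 14.2% of which were higher. Their log2 fold changes ran from -0.31 to 1.07. That label leaves out start-site peaks annotated otherwise, such as that of NAXD, in an intron, at -3.52. It also leaves out that of OPN3, in an exon and shared with CHML, at 4.98.

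Next to GJC1, 31 genes were tested and 2 of them were lower. Its nearest tested protein-coding neighbours are EFTUD2, a spliceosome GTPase 19.1 kb upstream, and ADAM11, a gene of the ADAM family 16.6 kb downstream. EFTUD2 had a log2 fold change of 0.07 (adjusted p 0.849) in the authors' deposited DESeq2 table. ADAM11 had 17 and 12 reads in the knockout and 33 and 55 in wild type, but its adjusted p was 0.193 in the authors' deposited DESeq2 table.

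CCDC181 overlaps BLZF1, a Golgi protein gene on the other strand, and the reads of the overlap cannot be assigned where strand was not used. BLZF1 had 407 and 473 reads in the knockout and 205 and 424 in wild type, with an adjusted p of 0.294 in the authors' deposited DESeq2 table. These raw reads overlap between the genotypes, but divided by the size factors both knockout libraries lay above both wild-type libraries. SLC19A2, a thiamine transporter 3.24 kb upstream, and NME7, 26.9 kb downstream, had adjusted p of 0.859 and 0.617 in the authors' deposited DESeq2 table. Farther off, ATP1B1, the beta subunit of the sodium pump 83.9 kb downstream, had 881 and 1095 reads in the knockout and 66 and 149 in wild type. It rose by 3.18 (SE 0.28) with an adjusted p of 2.79e-28 in the authors' deposited DESeq2 table, while its promoter peak rose by 0.41 in the authors' deposited table. KIFAP3, a kinesin partner 461 kb upstream, rose by 1.01 in the authors' deposited table. The call for KIFAP3 was lost against a 1.5-fold change.

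RAB20 lies 53.8 kb from NAXD, an enzyme gene that repairs hydrated NAD cofactors. NAXD had 0 and 0 RNA reads in the knockout and 274 and 376 in wild type, the reverse of RAB20. Its log2 fold change of -10.90 had an adjusted p of 2.63e-11 in the authors' deposited DESeq2 table. The start-site peak of NAXD fell by 3.52 (SE 0.26, adjusted p 2.56e-40) in the same authors' deposited DESeq2 table. None of the other 7 genes tested near RAB20 passed the threshold.

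For CPPED1, SNX29, a sorting nexin gene 85.5 kb downstream, was the one neighbour tested. It rose by 2.16 (SE 0.18, adjusted p 4.96e-30) in the authors' deposited DESeq2 table, within the stretch of chromosome 16 described above. At CHML, EXO1, a DNA exonuclease 208 kb upstream, rose by 0.68, and KMO, 33.2 kb downstream, had an adjusted p of 0.147 in the authors' deposited DESeq2 table. Near ATRN, ITPA, an enzyme gene 247 kb upstream, had an adjusted p of 0.140, and ADISSP, 102 kb downstream, fell by 0.61 (adjusted p 0.0363) in the authors' deposited DESeq2 table. RNF24, a ring finger gene 276 kb downstream of ATRN, rose by 0.94 (adjusted p 0.0222) in the authors' deposited DESeq2 table. After centring on the median within 2 Mb, RNF24 kept its call and ADISSP and EXO1 lost theirs. CHML and CCDC181 share chromosome 1 with the deletion, but lie 48.9 Mb and 23.1 Mb from the labelled interval, and the other 4 genes are on 4 other chromosomes.

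**Figure D4:**
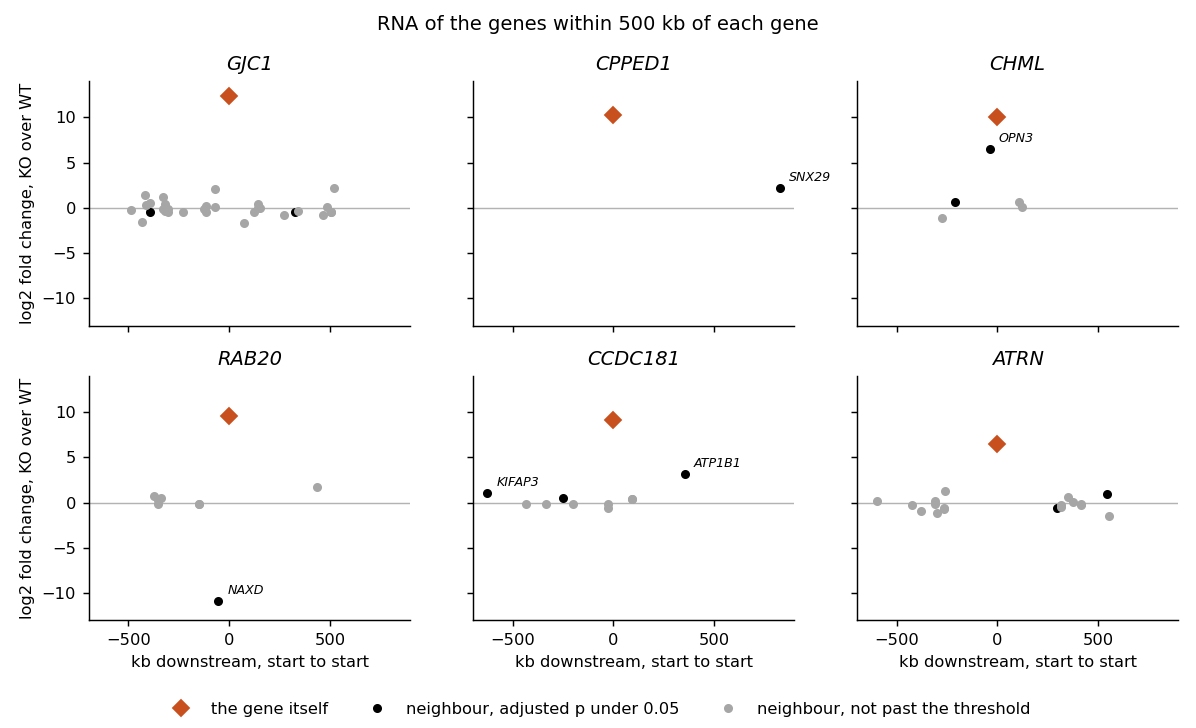
RNA log2 fold change (RGS-SE knockout over wild type) of the tested genes within 500 kb of each gene body, against the distance in kb from start to start. Diamonds are the 6 genes, black points neighbours with an adjusted p under 0.05, and grey points those not past the threshold. NAXD lies at -10.90 and RAB20 at 9.59, and 62 of the 73 neighbours are grey.

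The relatives and partners of the 6 genes did not move as a block. Of the connexins and pannexins, 24 were listed, 6 had a row and 2 besides GJC1 were tested. PANX1, a pannexin channel, fell by 1.96 (adjusted p 2.02e-05) in the authors' deposited DESeq2 table.

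Of the Rab GTPases, 47 besides RAB20 were tested, and 5 rose, 6 fell and 36 gave no call, with a median log2 fold change of 0.10. That is 23.4%, near the 19.2% of all tested genes. The smallest adjusted p values among them belonged to RAB12, which rose by 2.20, RAB3D, a Rab of secretory granules, which fell by 3.47, and RAB2A, which acts between the endoplasmic reticulum and the Golgi and rose by 1.08, in the authors' deposited table. Among 7 genes of Rab prenylation and recycling besides CHML, 1 passed. RABGGTB, a subunit of the geranylgeranyl transferase that Rab escort proteins serve, rose by 0.67 (adjusted p 0.0140) in the authors' deposited DESeq2 table. CHM, the paralog of CHML, had 0.42 with an adjusted p of 0.193 in the authors' deposited DESeq2 table.

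Of the attractin and melanocortin genes, 2 besides ATRN were tested. MGRN1, a ubiquitin ligase whose loss in mice resembles that of attractin, rose by 0.91 (adjusted p 0.0002), and MC1R had 0.43 with an adjusted p of 0.735, in the authors' deposited DESeq2 table. Among 19 metallophosphoesterases besides CPPED1, 1 rose, 3 fell and 15 gave no call, with a median of 0.00. That is 21.1% called, near the 19.2% of all tested genes. SMPDL3A, a phosphodiesterase, fell by 8.50 to a fitted knockout level near 0, PPP2CB, a catalytic subunit of protein phosphatase 2A, rose by 1.17, and SMPDL3B fell by 2.46, in the authors' deposited table. Of the 3 HOOK genes, a family of dynein adaptors listed for its link to CCDC181 in mice, HOOK1 was not tested. HOOK3 rose by 1.37, and HOOK2 had 0.03 with an adjusted p of 0.964, in the authors' deposited DESeq2 table. Whether HOOK3 or HOOK2 binds CCDC181 was not examined here.

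The pattern was not particular to these genes. A fitted level of at most 3 normalised reads in wild type and at least 100 in the knockout was met by 25 genes, of which 22 were protein-coding and 5 were of the 6. The reverse pattern was met by 24 genes. ATRN lay just outside, with a fitted wild-type level of 3.30, next to CTNNA1 just inside at 2.36. Besides the 6, the pattern's 5 highest log2 fold changes in protein-coding genes were those of SCML2, EIF4EBP1, PUDP, ZNF619 and ZNF597. They were taken by fold change and not by likeness of their fitted levels to those of the 6. SCML2 is a Polycomb group gene, EIF4EBP1 a repressor of translation and PUDP a pseudouridine phosphatase gene, while ZNF619 and ZNF597 are zinc finger genes.

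SCML2 had 533 and 596 RNA reads in the knockout and 0 and 0 in wild type. PUDP had 882 and 909 in the knockout and 0 and 1 in wild type. EIF4EBP1, ZNF619 and ZNF597 had between 177 and 428 reads per library in the knockout and none in wild type. Their start-site peaks had log2 fold changes of 3.12 for EIF4EBP1 to 8.31 for PUDP in the authors' deposited table, which spans most of the range of the 6 genes.

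Among the 17 other protein-coding genes of the pattern, 16 had a start-site peak. At 13 of these a start-site peak was higher, at 2 none passed the threshold, and at 1, CCND2, it was lower. CCND2, a cyclin, had 185 and 290 RNA reads in the knockout and 2 and 1 in wild type, while its start-site peak had a log2 fold change of -0.53 in the authors' deposited table. ATXN7L1 and CTNNA1, at 0.41 and -0.28 in the authors' deposited table, were those whose start-site peak did not pass. These 3 were chosen after their values were seen. At 10 of the 16 genes with a start-site peak the log2 fold change was at least that of RAB20, the lowest of the 6. Over all 13036 start-site peaks, counted by peak and not by gene, 15.4% were higher and 0.591% reached the value of RAB20.

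**Figure D5:**
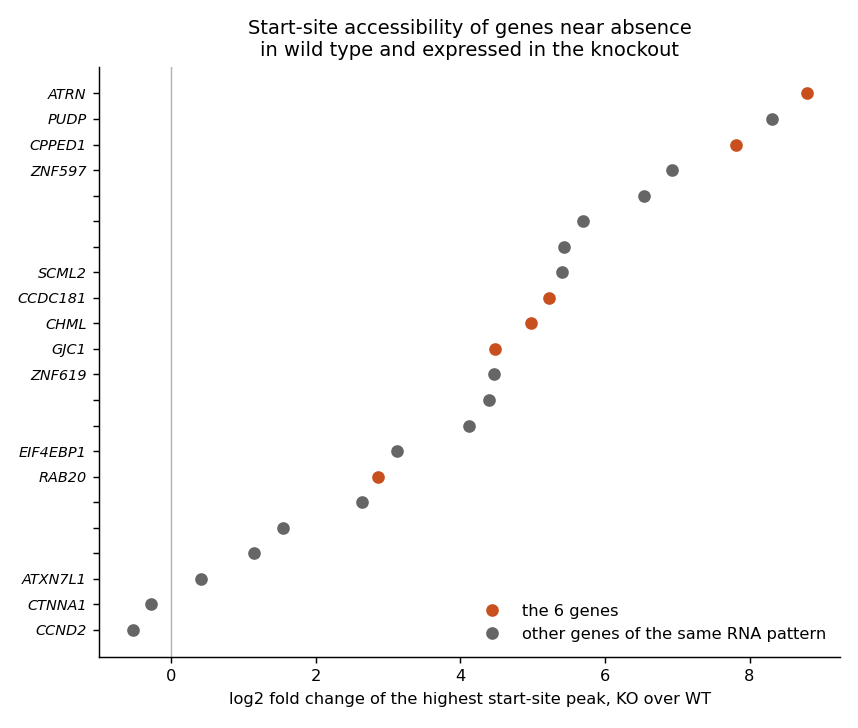
Log2 fold change (RGS-SE knockout over wild type) of the highest start-site ATAC peak of each protein-coding gene with RNA near absence in wild type and present in the knockout, ordered by value. Orange points are the 6 genes, grey points the 16 others with such a peak, labelled where the text names them. The 6 genes run from 2.87 at RAB20 to 8.79 at ATRN, and 3 of the other genes lie at 0.41 or below.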

How the data were processed

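Raji cells with the RGS-SE knockout and wild-type Raji cells were measured by RNA-seq and ATAC-seq, with 2 libraries per genotype and assay, and 50000 cells per ATAC library. Per the submitters' processing notes, Trim Galore, Trimmomatic, cutadapt, STAR, featureCounts, Bowtie2, HOMER and DESeq2 were used with GRCh38 or hg38. The sources used here do not give versions, settings, a peak caller or whether strand was used. DESeq2 results were deposited by the authors, per the file headers, with 1 entry per gene or peak. The signal they deposited is the mean over 4 libraries of counts divided by size factors, and it summed to 32800000 for RNA and 19900000 for ATAC. The authors deposited the log2 fold change with its SE, and a Wald score that equals their ratio. The deposited p-value is that of the Wald test and the adjusted p its Benjamini-Hochberg value, with 0.05 as the threshold here. They hold no values per library, so the planned count test was not run and the authors' deposited DESeq2 Wald results were used. It was not run on the solved reads either, which reach only genes and peaks with a mean of at most 600.

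From these, reads per library were solved from the means (Python 3.11.15, numpy 2.4.6, sympy 1.14.0), after a test on simulated data. RNA used the worth of 1 read from 1764 genes with a single read, and ATAC the lattice of low means with the assignment that fits the fold changes. Fitted levels per genotype come from the mean and the fold change. CPM is the mean scaled to the table's sum. Start-site peaks overlap 1000 bp around a protein-coding transcript start of GENCODE 44. Levels of 0 were bounded at 3 reads over both libraries, and intervals are 95%. Distances of other peaks from a start were taken between the midpoint of the peak and that of the start-site peak. Distances between genes are gaps between gene bodies.

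The members and gene lists were chosen with earlier results of these data known. Named were the 6 genes, overlapping genes, the nearest tested protein-coding genes, and neighbours past the threshold by at least 1 on the log2 scale. Up to 3 genes per list were named as well, and the 5 other protein-coding genes of the on pattern with the highest log2 fold changes. Some genes that this rule names are not reported here. The other neighbours named were chosen after their values were seen. P-values rest on the spread between these samples only, and the knockout samples may all come from 1 clone. Alternatives were stricter thresholds, a test against a 1.5-fold change, centring, other windows, pseudocounts and leaving out libraries.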

Additional observations from a re-analysis of the deposited data

How the results depend on the processing

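No paired analysis was possible because the deposited tables carry no replicate numbers. The 6 start-site peaks were all higher under each alternative run, except that 4 of 6 had a mean of at least 100. Counting start-site peaks in place of promoter-TSS peaks gave 6 in place of 1. Distal peaks past the threshold numbered 1 of 3 with a mean of at least 100, 7 of 12 with start-site peaks of other annotation counted as distal, 13 of 46 within 100 kb, 9 of 42 there without CPPED1, and 12 of 46 there after centring within 2 Mb. The excess of start over distal peaks, 2.24 at RAB20, had a median of 4.80 over 4 genes and of 5.27 over 6 genes with peaks within 100 kb. The median RNA log2 fold change of the 6 genes was 7.56 with a pseudocount of 1, and 8.47 to 8.62 with a library left out, at a pseudocount of 0.5. At ATRN it was 5.64 without the wild-type library of smaller size factor and 9.19 without the other. Without the wild-type library of smaller size factor, then without the other, the values were 11.05 and 8.33 for CHML RNA. For start-site peaks, without the ATAC libraries in the same order, they were 6.73 and 9.78 at CPPED1, 5.97 and 4.31 at CHML, and 3.15 and 2.59 at RAB20. Centring within 2 Mb gave 6.74 at CPPED1. Neighbours past the threshold by RNA numbered 7 of 35 within 250 kb, 21 of 115 within 1 Mb, 5 at an adjusted p under 0.01, 3 against a 1.5-fold change and 6 after centring within 2 Mb. Promoter-TSS peaks of neighbours numbered 4 of 21, 16 of 55 and, against a 1.5-fold change, 0. Genes of the on pattern numbered 16 with a wild-type level of at most 1 and 45 with a knockout level of at least 50. List genes past the threshold, 19 of 79, numbered 6 against a 1.5-fold change and 12 after centring within 2 Mb. The cause was not tested. Wild-type RNA counts of 0 to 7 reads limit how well a fold can be given.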

Other observations

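Among the protein-coding genes near absence in wild type, most wild-type RNA reads lay in the library with the larger size factor. PUDP, ULBP3, GNB4, MAP2K5, ZNRF3, ZNF227, THSD7B, CTNNA1 and CHST7 had 1 to 5 reads in that library and 0 in the other, and ATRN had 7 and 0. CHML and SDR42E1 had 2 and 1 reads in the library with the smaller size factor and 0 in the larger one. CCND2 had reads in both, 2 in the smaller and 1 in the larger.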
